A study of Drosophila melanogaster with 3 samples.

Results

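The vacuolar proton pump, or V-ATPase, was described here through the 33 genes whose symbols begin with Vha, of 15682 genes counted in Drosophila melanogaster. The rule takes every such gene, and membership uses no measured value. The later split of these genes by level uses the counts. RNA was measured in 3 libraries, labelled 1 to 3, from skeletal muscle of males, 10 days of age, with RNAi against Ptx1, the fly gene of the PITX homeodomain transcription factors. Sample titles name Mhc and Gal4 in the construct, a driver of the myosin heavy chain promoter that acts in muscle, and the series title ties the factors to proteases and protein quality control in aging. The labels describe 1 group, and the series' control libraries belong to another series and were not analysed here, so no effect of the RNAi on any pump gene was measured. The labels do not say whether the libraries came from separate pools of flies, so spreads between them may be partly technical.

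The V-ATPase is a rotary pump that uses ATP to move protons across membranes and acidifies lysosomes, endosomes and secretory vesicles. Its peripheral V1 sector hydrolyses ATP, and its membrane V0 sector carries the protons. In muscle fibres it is needed for lysosomal digestion in autophagy, and in insects it also energizes the plasma membranes of epithelia such as the Malpighian tubule, the insect kidney. Many subunits have several gene copies in flies, some broadly expressed and others mostly found in the testis or in single cell types.

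The libraries held 35988267, 50794384 and 52675322 gene counts. The targeted gene, Ptx1, had 565, 625 and 640 counts, or 15.7, 12.3 and 12.1 CPM (counts scaled to the same round total of gene counts in each library), and how far the RNAi lowered it cannot be read from this group alone. All 8 muscle markers were at or above 1 CPM in every library, with summed levels of 13396, 17226 and 15303 CPM in libraries 1, 2 and 3. The gut markers, at 10625, 8402 and 8845 CPM, had all 7 of 7 members above that level, and 6 of 7 Malpighian tubule markers were above it, at 163, 160 and 166 CPM in sum. The summed neuron markers, with 6 of 6 members above 1 CPM, stood at 602, 944 and 804 CPM. Fat body markers, 5 of 5 above 1 CPM, summed to 9087, 9605 and 9593 CPM, and blood cell markers, also 5 of 5, to 332, 395 and 377 CPM. Of the testis markers 1 of 7 was above 1 CPM, and the sums were 5.22, 2.26 and 3.42 CPM. None of 4 accessory gland markers reached 1 CPM, and Acp26Aa and Acp70A, both defining genes of that gland, had a count of 0 in every library. The pump levels below are therefore of RNA that also held transcripts of other tissues, and the share of each tissue was not measured. In such bulk RNA, fewer cells of a type and less RNA per cell cannot be told apart.

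Of the 33 genes, 22 stood at or above 1 CPM in every library and 11 stood below. The separation was wide. The lowest of the 22 in any library was VhaM9.7-a at 17.2 CPM in library 3, and the highest of the 11 in any library was VhaAC39-2 at 0.611 CPM in library 1. The 22 genes covered every one of the 8 V1 subunits, the 5 V0 subunits and the 2 accessory proteins. A single widely counted gene stood for 11 of these 15 positions, and several stood for the other 4, the subunits A, D, a and e. The Vha genes together held 0.822%, 0.781% and 0.810% of all gene counts in libraries 1, 2 and 3, a mean of 0.804% ± 0.0214 (SD, n = 3). V1 genes held 0.411% ± 0.00971, V0 genes 0.304% ± 0.00677 and the accessory genes 0.0900% ± 0.00522 (SD, n = 3 each). Counts of V1 genes were 1.354, 1.350 and 1.351 times those of V0 genes in libraries 1, 2 and 3. This ratio moved less between the libraries than the share of the pump as a whole did. Vha16-1, at 1559, 1557 and 1605 CPM of V0 sums of 3088, 2961 and 3065 CPM, weighs heavily in it. No ratio was computed for other gene sets, so its steadiness has no background to be read against. Gene lengths were not available, so CPM values of different genes, and this ratio itself, do not give numbers of transcripts, and levels are compared here between libraries. Where paralogs are set side by side, the comparison is of counts and not of transcript numbers.

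**Figure D1:**
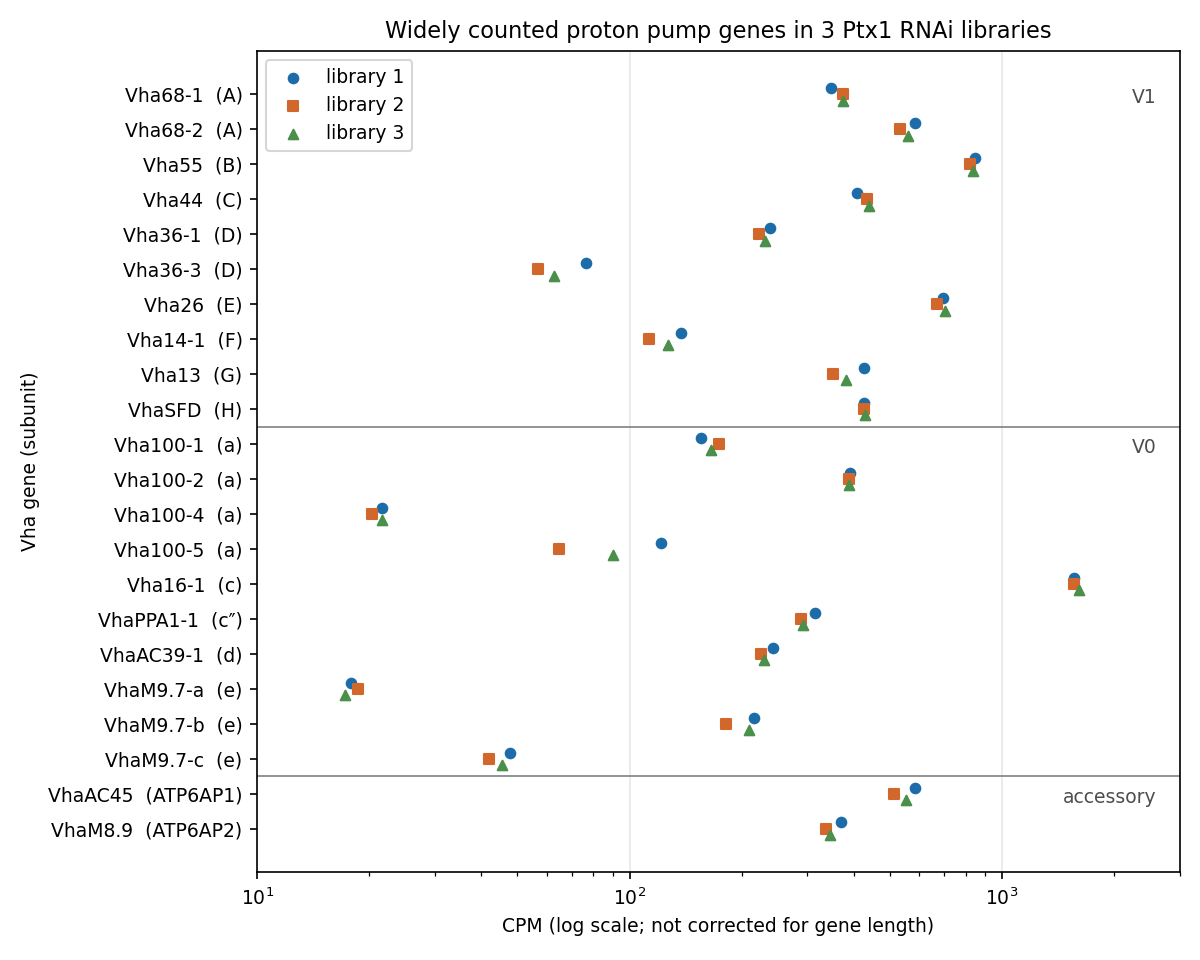
CPM on a log scale of the 22 Vha genes at or above 1 CPM in every library, with 1 marker per Ptx1 RNAi library; the subunit each gene encodes is in brackets, and lines part the V1, V0 and accessory genes. The 3 markers of most genes nearly coincide, and those of Vha100-5 lie farthest apart, between 64.5 and 121 CPM.

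The catalytic head of V1 is made of subunits A and B. Subunit A, which holds the ATP-hydrolysing sites, was counted from a pair of genes. Vha68-2 stood at 583, 532 and 559 CPM in libraries 1, 2 and 3, and Vha68-1 at 347, 374 and 374 CPM. Vha68-2 was thus higher in library 1 than in the others while Vha68-1 was lower there. Vha55, the only gene for subunit B, stood at 844, 819 and 837 CPM, a mean of 833 ± 12.9 CPM (SD, n = 3). The central rotor holds subunits D and F. Vha36-1, for D, stood at 238, 222 and 231 CPM, and its paralog Vha36-3 at 76.3, 56.9 and 62.5 CPM. Vha36-3 was higher in library 1 than in the others, with its highest level 1.34 times its lowest. Vha14-1, for F, stood at 137, 113 and 127 CPM and was lowest in library 2.

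The stator stalks, which hold the head still while the rotor turns, are built from subunits C, E, G and H. Vha26, for E, stood at 695, 668 and 703 CPM in libraries 1, 2 and 3. Vha13, for G, stood at 425, 352 and 380 CPM and was highest in library 1. Vha44, for C, the subunit that yeast V1 releases when the pump comes apart, stood at 409, 434 and 439 CPM and was lowest in library 1. VhaSFD, for H, which in yeast keeps detached V1 from hydrolysing ATP, stood at 427, 427 and 430 CPM. These values of VhaSFD had a coefficient of variation, the SD as a share of the mean, of 0.401%, the lowest among the 22 genes.

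In V0, protons pass between subunit a and a ring of small proteolipids. Vha16-1, for the ring subunit c, stood at 1559, 1557 and 1605 CPM, a mean of 1573 ± 27.4 CPM (SD, n = 3). VhaPPA1-1, for the related ring subunit c″, stood at 315, 289 and 292 CPM. VhaAC39-1, for subunit d, which joins the ring to the rotor, stood at 242, 226 and 230 CPM. Both were highest in library 1, by 1.09 and 1.07 times their lowest level. For the small membrane subunit e, VhaM9.7-b stood at 216, 181 and 209 CPM, VhaM9.7-c at 47.7, 42.1 and 45.3 CPM and VhaM9.7-a at 17.9, 18.6 and 17.2 CPM. Of these, VhaM9.7-b and VhaM9.7-c were lowest in library 2, where VhaM9.7-a was highest.

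Subunit a was the one with the most widely counted copies, 4 of its 5 genes. Vha100-2 stood at 391, 388 and 388 CPM in libraries 1, 2 and 3, with a coefficient of variation of 0.475%. Vha100-1, known in flies for its role in synaptic vesicle function in neurons, stood at 155, 174 and 166 CPM and was lowest in library 1. The summed neuron markers (602, 944 and 804 CPM) had the same order of libraries, and so did the muscle, fat body and blood cell sums given above. Of all 9579 genes at or above 1 CPM in every library, 32.5% likewise had their highest level in library 2 and their lowest in library 1. The part of any of these tissues in the difference was not tested. Vha100-4, which flies need for acid secretion by copper cells of the midgut, stood at 21.6, 20.4 and 21.6 CPM. The homeotic gene lab, a defining marker of those cells, stood at 1.17, 1.56 and 1.48 CPM. Vha100-5 stood at 121, 64.5 and 90.1 CPM, with a mean of 92.0 ± 28.5 CPM (SD, n = 3). Its level in library 1 was 1.88 times that in library 2. The exact 95% intervals of counting error, 118 to 125, 62.3 to 66.7 and 87.5 to 92.7 CPM in turn, did not overlap. Nor did those of Vha100-1, Vha13, Vha14-1, Vha36-3, Vha68-2 and VhaAC45. Such intervals leave out variation between samples. Their overlap was not counted over all genes, so their separation is no result about the pump genes.

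The accessory proteins ATP6AP1 and ATP6AP2 are needed for assembly of the pump in mammals, and the second is also called the prorenin receptor. VhaAC45, the ATP6AP1 gene, stood at 584, 512 and 553 CPM in libraries 1, 2 and 3. VhaM8.9, the ATP6AP2 gene, stood at 369, 337 and 344 CPM. Library 1 had the highest level of both genes, and library 2 the lowest.

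The 11 low genes were copies of subunits for which a widely counted gene existed. VhaAC39-2 had 22, 15 and 25 counts in libraries 1, 2 and 3, Vha16-5 had 6, 10 and 12, and Vha68-3 had 12, 8 and 5. These 3 were the only low genes with 5 or more counts in any library. The remaining 8, Vha100-3, Vha14-2, Vha16-2, Vha16-3, Vha16-4, Vha36-2, VhaM9.7-d and VhaPPA1-2, had at most 4 counts in any library. A count of 0 occurred for 7 low genes in at least 1 library and for Vha16-4 in every library, which, by a fixed limit of 3 counts per library, allows levels of up to 0.0834 CPM in library 1, 0.0591 CPM in library 2 and 0.0570 CPM in library 3, for counting error only. The upper bound of the two-sided exact 95% interval at a count of 0 is wider, at 0.103, 0.0726 and 0.0700 CPM. The 11 genes together had 44, 39 and 54 counts, or 1.22, 0.768 and 1.03 CPM. The testis markers, at 5.22, 2.26 and 3.42 CPM in sum, had the same order of libraries. So did 36.0% of all 9579 genes at or above 1 CPM in every library. Of the 3 low genes with 5 or more counts, only VhaAC39-2 itself had that order. Among the testis markers, twe was instead highest in library 2 and bam lowest in library 3. Whether RNA from the testis entered these counts was not tested.

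**Figure D2:**
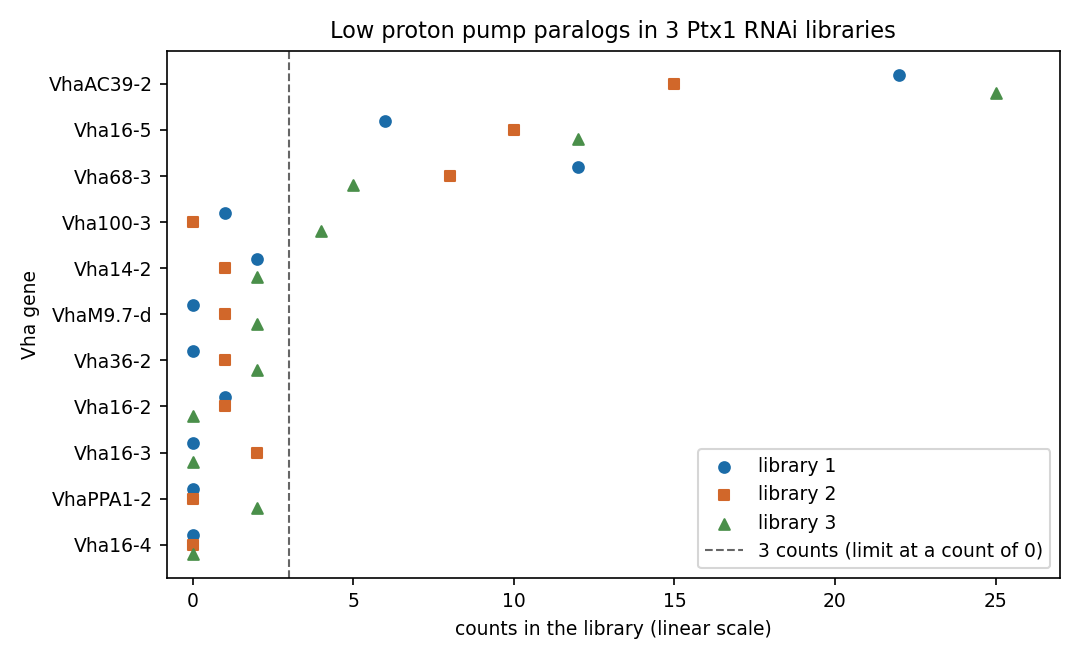
Counts, on a linear scale, of the 11 Vha genes below 1 CPM, with 1 marker per Ptx1 RNAi library and a dashed line at the 3 counts used as the limit for a count of 0. VhaAC39-2, at 15 to 25 counts, lies apart from the others, and 8 genes have 4 counts or fewer in every library.

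Within the multi-gene subunits, the copies held different shares of the counts. For c, c″, d and F, a single gene held nearly all counts: Vha16-1 held 99.986% ± 0.00199 of those of its 5-gene family, VhaPPA1-1 99.996% ± 0.00750 of 2 genes, VhaAC39-1 99.80% ± 0.0612 of 2 genes and Vha14-1 99.97% ± 0.0115 of 2 genes (SD, n = 3 each). The shares are of counts and not corrected for gene length. For subunit A, Vha68-1 held 37.3%, 41.3% and 40.1% of the counts of 3 genes in libraries 1, 2 and 3. Its exact 95% Clopper-Pearson interval was 36.8% to 37.8% in library 1, below the 40.8% to 41.7% of library 2 and the 39.6% to 40.5% of library 3. For subunit D, Vha36-3 held 24.3%, 20.4% and 21.3%, with the remainder in Vha36-1 except for at most 2 counts of Vha36-2. The interval for library 1, 23.5% to 25.1%, lay above those of library 2, 19.7% to 21.1%, and library 3, 20.7% to 22.0%.

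Among the 4 subunits with several widely counted genes, the mix of copies of subunit a differed most between the libraries. Vha100-5 held 17.6% of the family's counts in library 1, 9.97% in library 2 and 13.5% in library 3, and no pair of its intervals overlapped. Vha100-1 held 22.5%, 26.9% and 24.9%, lowest in library 1 where Vha100-5 was highest. Vha100-2 held 56.8%, 60.0% and 58.3%. The intervals of Vha100-1, and those of Vha100-2, were likewise apart in all 3 libraries. The share of Vha100-4 lay between 3.14% and 3.24%, with overlapping intervals. For subunit e, VhaM9.7-b held 76.7%, 74.9% and 76.9%, VhaM9.7-c 16.9%, 17.4% and 16.7%, and VhaM9.7-a 6.34%, 7.71% and 6.34%. The interval of VhaM9.7-a in library 2, 7.24% to 8.19%, lay above the 5.88% to 6.84% of library 1 and the 5.94% to 6.75% of library 3. That of VhaM9.7-b in library 2, 74.1% to 75.7%, lay below the 75.9% to 77.5% of library 1 and the 76.2% to 77.6% of library 3. The intervals for all 4 subunits cover counting error only, and separate samples are expected to differ by more. How often they lie apart in other gene families was not counted, so their separation is no result about the pump genes.

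**Figure D3:**
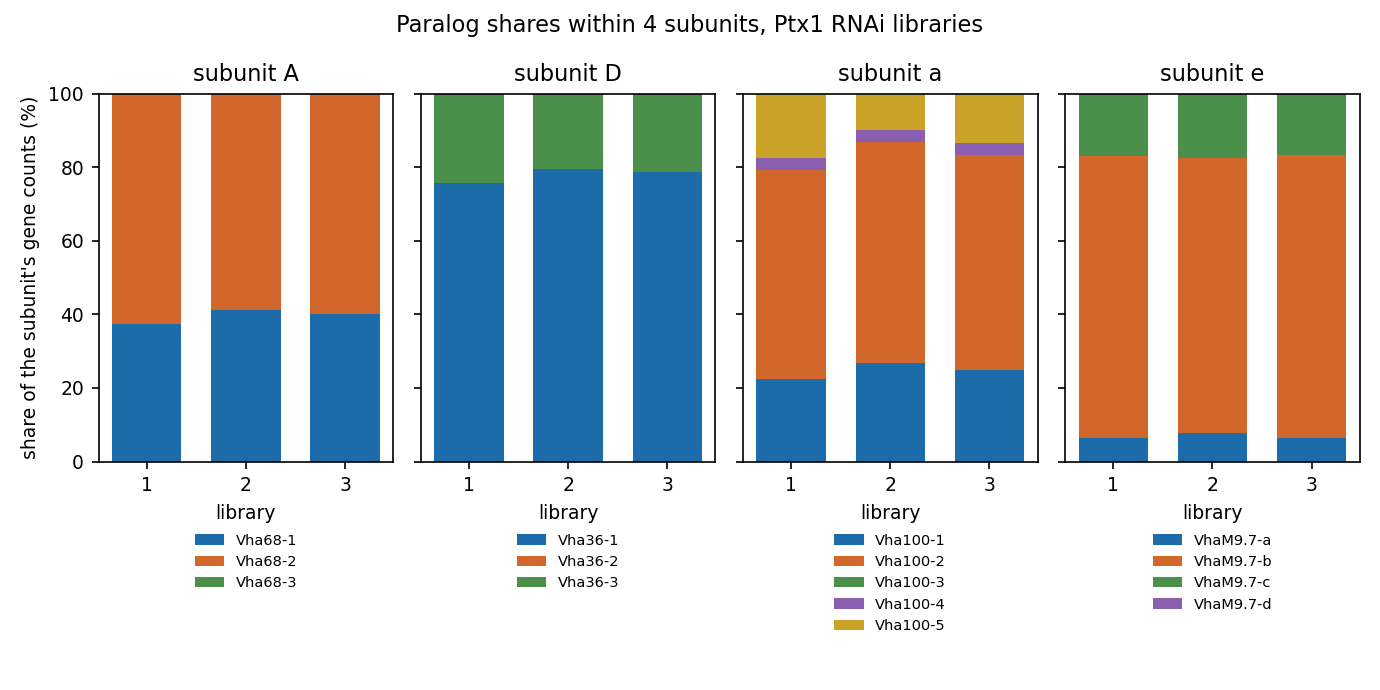
Share of a subunit's gene counts (%, linear axis from 0 to 100) held by each paralog, as stacked bars for libraries 1, 2 and 3, in the 4 subunits with several widely counted genes. The segment of Vha100-5 in subunit a takes 17.6%, 9.97% and 13.5%, and that of VhaM9.7-a in subunit e takes 6.34%, 7.71% and 6.34%.

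The difference between libraries was also tested for all genes, with an intercept-only edgeR fit that asks whether a gene's counts differed between the 3 libraries by more than those of genes of like abundance. Of 23 Vha genes that passed the filter on low counts, 22 widely counted ones and VhaAC39-2, 0 were called at an adjusted p under 0.05 (edgeR goodness of fit, Benjamini-Hochberg), against 2.05% of all 10522 genes tested. At an unadjusted p under 0.05, 1 was called, Vha100-5, against 5.39% of all genes. Both counts were near these background shares, so neither is a result about the pump genes. The edgeR adjusted p of Vha100-5 was 0.161, from an unadjusted 0.00426, and it lay between 0.215 and 0.9995 in the 6 alternative fits. Its library order, 1 over 3 over 2, was that of the summed gut markers (10625, 8402 and 8845 CPM) and of the testis sum. The same order held for 15 of the 22 widely counted pump genes, Vha100-5 among them. The accessory gland sum had it too, but at 0.361, 0.197 and 0.266 CPM, with at most 13 counts of any marker in a library. Within the gut list, Amy-p (1180, 1334 and 1169 CPM) and lab (1.17, 1.56 and 1.48 CPM) were instead highest in library 2. The gut gene betaTry (2032, 1708 and 1689 CPM) was lowest in library 3. The part of gut RNA in the difference of Vha100-5 was not tested. RefSeq also places an antisense RNA gene over Vha100-5, and no source used here says whether the counting used strand.

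Most pump genes varied little. Their coefficient of variation had a median of 4.43% over the 22 genes and ranged up to 31.0% in Vha100-5, beside a median of 7.86% over all 9579 genes at or above 1 CPM in every library and of 6.99% over the 6000 of those within the range of mean CPM that the 22 spanned. It was under 5% for 14 of the 22 and under the median of the 6000 genes for 17. That range, 17.9 to 1573 CPM, is wide, and the 22 had a median of 324 CPM. The 6000 genes are therefore not matched to them in level. After Vha100-5, Vha36-3 came next at 15.3%, followed by Vha14-1 at 9.87%, Vha13 at 9.59% and VhaM9.7-b at 9.10%. In all 5, library 1 was the highest and library 2 the lowest.

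That order was the usual one among the pump genes. Of the 22, 15 had their highest level in library 1 and their lowest in library 2, or 68.2%, beside 36.0% of all 9579 genes. The median deviation from a gene's own mean, on the log2(CPM + 0.5) scale, was 0.05 in library 1, −0.05 in library 2 and 0.01 in library 3 for the 22 genes, beside 0.00, −0.01 and 0.01 for all 9579 genes. The gut markers had median deviations of 0.17, −0.08 and −0.04 in the same libraries, and the Malpighian tubule markers 0.08, −0.01 and −0.01. The neuron markers had −0.38, 0.33 and 0.07, and the muscle markers −0.03, −0.03 and 0.02. The tubule markers were mixed. Irk3 and ZnT35C had the usual order of the pump genes, whereas Drip (107, 110 and 113 CPM) and Esp were lowest in library 1. The tubule sum (163, 160 and 166 CPM) peaked in library 3. The gut mannosidase gene CG9466 stood at 287, 63.2 and 158 CPM (edgeR adjusted p = 2.2e-11). It was the only 1 of 7 gut markers called at an adjusted p under 0.05, beside 2.05% of all 10522 genes tested. Among the 6 neuron markers 1 was called as well, Syx1A, at 14.4, 33.1 and 23.6 CPM (edgeR adjusted p = 0.0136). Its order of libraries was the reverse of that of CG9466. The part of these tissues, or of RNA or library quality, in the order of the pump genes was not tested. The exceptions included Vha44, Vha68-1 and Vha100-1, which were lowest in library 1, with deviations there of −0.06, −0.07 and −0.09. The genes share libraries and are not independent of each other, no test was run on these medians, and each is small beside the 0.45 of Vha100-5 in library 1.

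**Figure D4:**
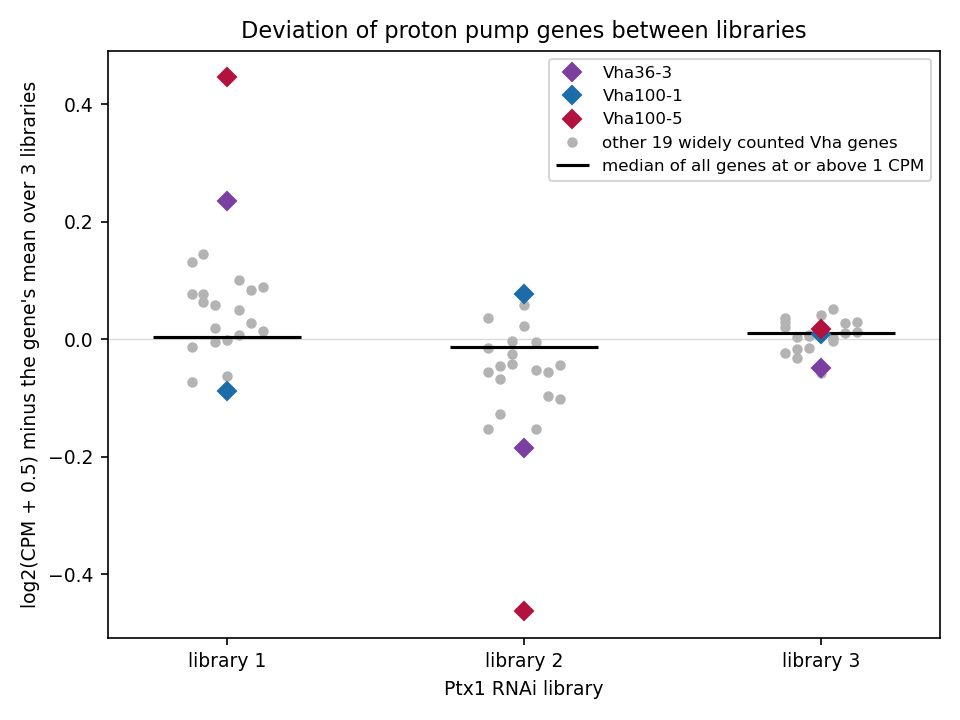
Deviation of each widely counted Vha gene from its own mean, as log2(CPM + 0.5), in each Ptx1 RNAi library, with Vha100-5, Vha36-3 and Vha100-1 as coloured diamonds, the other 19 genes as grey dots, and a black bar at the median of all genes at or above 1 CPM. Vha100-5 lies at 0.45 in library 1 and −0.46 in library 2, outside the range of every other pump gene shown.

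The copies also share their place in the genome in some families, in RefSeq gene order on the Release 6 plus ISO1 MT assembly. Vha68-2 and Vha68-3 are direct neighbours, and Vha68-1 lies 1 gene beyond Vha68-3. Vha68-3 had 5 to 12 counts per library, whereas Vha68-1 and Vha68-2 had 12472 or more. Vha100-4 and Vha100-2 are direct neighbours as well, at 21.2 ± 0.713 and 389 ± 1.85 CPM (SD, n = 3 each). VhaPPA1-1 has VhaPPA1-2 1 gene away, at 11340 or more against 2 counts at most. Vha16-2 and Vha16-3, with at most 2 counts each, have no protein-coding gene between them. Reads that did not align uniquely, 8.37% to 9.85% of all that the files list, and reads ambiguous between genes, 2.35% to 2.74%, stand outside the gene counts. Genes with close copies, or that overlap another gene as 10 of the 33 do in RefSeq, may therefore be undercounted, and how many of these reads belonged to Vha genes is not known.

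Genes of pump assembly and control and of the lysosome were counted too. Of 22 measured list members, 21 stood at or above 1 CPM in every library, and CG7071 was listed at 0 in every library. In RefSeq CG7071 spans the same stretch as the gene Muted, so its reads could count as ambiguous and the 0 does not show that it was silent. Of 21 tested, 0 were called variable by edgeR at an adjusted p under 0.05 and 0 at an unadjusted p under 0.05, beside 2.05% and 5.39% of all genes, so these counts are near background and no result about the list. The Rabconnectin genes, whose products promote pump assembly in flies, stood at 171, 244 and 201 CPM for Rbcn-3A and at 106, 143 and 120 CPM for Rbcn-3B in libraries 1, 2 and 3. Mitf, the transcription factor known to drive many pump genes in flies, stood at 154, 199 and 187 CPM, and mtd, a TLDc domain gene, at 591, 705 and 673 CPM. All 4 were lowest in library 1 and highest in library 2, as were 8 of the 21 in all, beside 32.5% of all 9579 genes. That share is near background. CG31030, which RefSeq names as a relative of VhaAC45, stood at 59.9 ± 3.23 CPM, and CG5969 at 11.1 ± 1.24 CPM (SD, n = 3 each).

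Lysosomal membrane and ion transport genes gave values in every library. Lamp1, a major lysosomal membrane protein, stood at 444, 503 and 522 CPM in libraries 1, 2 and 3, the efflux transporter gene spin at 190, 185 and 188 CPM, and the late endosome GTPase gene Rab7 at 285, 287 and 298 CPM. The chloride transporter genes ClC-b and ClC-c stood at 51.8 ± 2.05 and 97.5 ± 10.9 CPM, and the calcium channel gene trpml at 45.8 ± 2.78 CPM (SD, n = 3 each). The sterol transport genes Npc1a and Npc2a stood at 110 ± 16.4 and 59.2 ± 4.99 CPM. The tethering complex genes dor, car, lt and Vps16A, which act in fusion with lysosomes, stood at 20.0 ± 1.44, 20.0 ± 1.16, 205 ± 16.3 and 37.1 ± 1.63 CPM. Of the genes that bring TORC1 signalling to the lysosome, RagA and RagC stood at 35.8 ± 0.440 and 80.4 ± 3.37 CPM, and mio, which acts upstream of them, at 21.4 ± 0.594 CPM. Over the 21 genes, the median deviation was −0.07 in library 1, 0.04 in library 2 and 0.03 in library 3, with signs opposite to those of the pump genes in libraries 1 and 2. No test was run on that difference.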

How the data were processed

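Per the labels' protocols, RNA from cell lysates was purified on RNeasy columns and made into stranded TruSeq mRNA libraries. The authors deposited raw whole-number counts per gene symbol. The submitters' processing notes name CASAVA 1.7, BWA, STAR and HTSeq without roles, and mm9, a mouse build; the fly build is not given in the sources used, and no coordinates are printed. The 5 summary rows that name no gene, 22.0% to 25.1% of all listed counts, were left out. The 6 columns of samples outside the series were not used. Every pair of libraries differed far beyond counting error. The chi-square per degree of freedom was 103 for libraries 1 and 2, 42.5 for 1 and 3 and 23.2 for 2 and 3. Library 1 thus stood farthest from the others. It also had the fewest gene counts. Its share of listed reads in no gene feature was lowest, 9.80% against 11.9% and 11.6% in libraries 2 and 3. Whether RNA or library quality differed was not tested, and all 3 were kept.

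CPM was computed over all gene rows. Every Vha gene is accounted for; genes at 1 CPM or more in every library are described singly. Members and lists were chosen with earlier results of these data known. Of 75 list entries, 1 (nSyb) matched no row and 9 matched through RefSeq names; Oat was dropped as an error, ATP6AP2 is a member, and SP repeats Acp70A. Variability was tested with edgeR 4.0.16 in R 4.3.3 (TMM, filterByExpr, trended dispersion, chi-square goodness of fit on 2 degrees of freedom, Benjamini-Hochberg). The test was also checked on simulated data. The simulation used a fixed dispersion below the common dispersion of the real data (0.0210), so the check may overstate how often differences are found. Intervals are exact Clopper-Pearson at 95%. Alternatives used DESeq2 1.42.0 size factors, other filters, a common dispersion, another pseudocount and omitted libraries. Results planned per gene length and on promoter motifs were not run, since lengths and sequences were not at hand.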

Additional observations from a re-analysis of the deposited data

How the results depend on the processing

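The 22 widely counted Vha genes were also 22 at 0.5 CPM, at 5 CPM, by the mean, and without any 1 library. The Vha share of counts was 0.859% with totals that omit the 10 genes of highest mean CPM, a smaller total by construction, and otherwise stayed within 1 SD. Genes called variable by edgeR numbered 216 with all libraries and 89 to 124 with 1 left out (108 without library 1, 89 without library 2, 124 without library 3), where fewer libraries remain. They numbered 213 with DESeq2 size factors, 262 with no filter on low counts and 244 with a common dispersion. Vha genes called at an adjusted p under 0.05 numbered 0 in each of these fits, with 1, Vha100-5, at an unadjusted p under 0.05, where 3.94% to 6.28% of all genes were called, so 1 is at background. The median deviation of Vha genes in library 3 was 0.008 and became −0.002 with TMM library sizes. No paired analysis was possible because all libraries belong to 1 group. Results per gene length were not run. Depth limits the 11 low genes, whose counts per library lie between 0 and 25.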
